A study of Bos indicus with 6 samples.

Results

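The genes described here are 8 members of the inflammatory response: the cytokines IL6, IL1B and TNF, the chemokines CXCL8 and CCL5, the inhibitory cytokine IL10, and the receptors TLR4 and TLR2. They were chosen by Ensembl cattle gene identifier from a table of 24616 identifiers, and 4 of the 8 had reads: TLR4 (ENSBTAG00000006240), IL1B (ENSBTAG00000001321), IL6 (ENSBTAG00000014921) and TNF (ENSBTAG00000025471). The identifiers without reads were those of TLR2 (ENSBTAG00000008008), CXCL8 (ENSBTAG00000019716), CCL5 (ENSBTAG00000007191) and IL10 (ENSBTAG00000006685). The table holds identifiers only, so the symbols were taken from the list that set the members. All 8 symbols are in the RefSeq gene table of the Bos indicus assembly NIAB-ARS_B.indTharparkar_mat_pri_1.0, but that table carries no Ensembl identifiers, and the pairing of symbol and identifier could not be checked against it.

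RNA was sequenced from the endometrium, the lining of the uterus, of 6 healthy, multiparous, nonlactating Nelore cows (Bos indicus beef cattle), 3 in each of 2 regimens. All cows were presynchronized and received a progesterone-releasing device with estradiol benzoate on day -10, cloprostenol (a prostaglandin analogue that regresses the corpus luteum) when the device was withdrawn, and GnRH, which triggers ovulation, on day 0. The large follicle, large corpus luteum regimen (LF-LCL) included a further cloprostenol dose on day -10 and left 42 to 54 hours between withdrawal and GnRH. The small follicle, small corpus luteum regimen (SF-SCL) had no cloprostenol on day -10 and left 30 to 36 hours, and tissue was collected on day 7 in both. The comparison asks whether these regimens, which set the size of the ovulated follicle and of the corpus luteum, were accompanied by different levels of inflammatory transcripts.

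Toll-like receptors are sensors of microbial products on leukocytes, epithelial and stromal cells. TLR4 binds lipopolysaccharide of Gram-negative bacteria and TLR2 binds bacterial lipopeptides, and both signal through MyD88 to the transcription factor NF-kB. Its targets include IL6, IL1B and TNF, which spread the response, and the chemokines CXCL8, which draws neutrophils, and CCL5, which draws T cells and monocytes, while IL10 restrains the response. In the bovine uterus this pathway is best known from the response of endometrial cells to bacteria after calving.

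The libraries held 2896663 to 7811332 reads assigned to genes, recovered from the deposited values, which are read counts divided by a size factor per library (termed normalised read counts). A single read was worth 0.562 normalised units at the greatest depth (LF-LCL replicate 1) and 1.55 at the lowest (SF-SCL replicate 3). In the table, 9148 of 24616 identifiers (37.2%) were listed at 0 in all 6 libraries. The labels give no sequencing batch or date, so no value within a batch could be computed. Identifiers were not paired with symbols, so neither the tissue label nor the leukocyte content was checked against marker genes.

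Among the receptors, TLR4 carried most of the signal of the whole set, with 636 of the 724 reads of the 8 genes (87.8%). Its normalised read count was 73.7, 79.9 and 42.2 in LF-LCL replicates 1 to 3, from 131, 96 and 30 reads. In SF-SCL replicates 1 to 3 it was 157, 128 and 127, from 121, 176 and 82 reads. Every SF-SCL cow lay above every LF-LCL cow, SF-SCL replicates 2 and 3 lay close together, and LF-LCL replicate 3 was the lowest of the 6. The groups did not overlap, as was also the case, in either direction, for 22.8% of the 12535 genes tested, and with LF-LCL lower for 11% of them. In whole-tissue RNA, fewer cells that express a gene and less RNA of it per cell cannot be told apart.

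The TLR4 difference was large relative to the spread between cows but did not pass the threshold set over all genes. LF-LCL cows averaged 65.3 ± 20.2 normalised reads (SD, n = 3) and SF-SCL cows 137 ± 17.3 (SD, n = 3), so the SF-SCL mean was 2.11 times the LF-LCL mean. The log2 fold change of LF-LCL over SF-SCL was -1.11 with a standard error of 0.27 and a 95% interval of -1.72 to -0.50 (limma on log2(value + 1), adjusted p = 0.0873). The unadjusted limma p was 0.00295, the 424th smallest of the 12535 genes tested. An exact permutation test of the means, two-sided, gave p = 0.1, the smallest that 3 cows against 3 allow (0.4 after adjustment over the 4 genes tested). With the standard error of TLR4, a log2 difference of 1.48 (2.79-fold in value + 1) would have been needed for a call.

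The direction of the TLR4 difference did not rest on 1 cow, whereas the call depended on the test. Because the groups did not overlap, leaving out 1 cow could change the size of the difference but not its sign. With all 6 cows, the log2 fold change was -1.12 to -1.04 over 8 alternative settings. DESeq2 on the recovered reads called TLR4 (log2 fold change -1.05, adjusted p = 0.0109), as it did 6.08% of the 11255 genes to which it gave an adjusted p. The quasi-likelihood test of edgeR left it uncalled (log2 fold change -1.05, adjusted p = 0.0868), and it called 0.835% of 10177 genes. Over the 8 settings, adjusted p ranged from 0.0109 to 0.0935. Leaving out 1 cow at a time in limma gave log2 fold changes from -1.28 without LF-LCL replicate 2 to -0.82 without LF-LCL replicate 3. None of these 6 fits called TLR4 (limma, adjusted p = 0.101 to 0.29), but 5 of them called only 0 to 12 genes in the whole table, so a call was unlikely for any gene. The fit without SF-SCL replicate 3 called 370 of 12533 genes and not TLR4 (log2 fold change -1.16, limma adjusted p = 0.101).

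**Figure D1:**
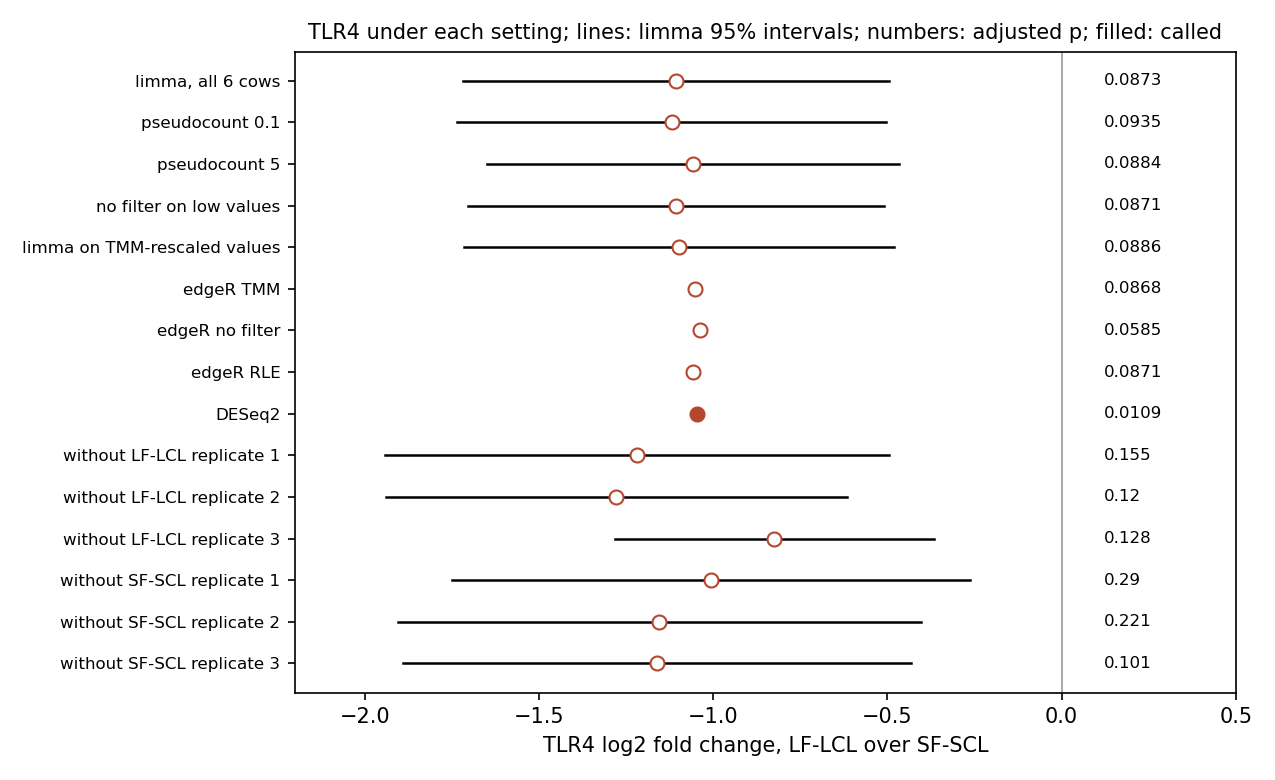
TLR4 log2 fold change of LF-LCL over SF-SCL (horizontal axis) under each setting (rows), with 95% intervals as lines where limma was used, the adjusted p at the right, and a filled point where the gene was called. All 15 estimates lie below 0, from -1.28 to -0.82, and only DESeq2 gives an adjusted p under 0.05.

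The cow-to-cow spread of TLR4 was larger than counting error alone. Within the groups, the variance of its reads was 3.39 times that of counting error (chi-square per degree of freedom, 4 degrees of freedom). The coefficient of variation was 31% in LF-LCL and 12.6% in SF-SCL. Summed over the cows of a group and divided by the summed size factors, TLR4 reads were 1.95 times as frequent in SF-SCL (exact 95% interval 1.66 to 2.29, covering counting error only).

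TLR2, the other receptor, was listed at 0 reads in all 6 libraries. No limit on its level is drawn from this, because a gene at 0 in every library may have lost its reads in alignment or counting, which was not tested. No fold or test between the regimens can be given for TLR2.

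The pro-inflammatory cytokines had few reads in both regimens. IL1B, the precursor of interleukin-1 beta, was the most frequent of them, with 54 reads in all and at least 5 in every library. Its normalised read count was 10.1, 4.16 and 7.04 in LF-LCL replicates 1 to 3, from 18, 5 and 5 reads. In SF-SCL it was 13, 7.27 and 9.28, from 10, 10 and 6 reads. The highest value was in SF-SCL replicate 1 and the lowest in LF-LCL replicate 2, and the ranges of the groups overlapped. LF-LCL cows averaged 7.11 ± 2.98 normalised reads (SD, n = 3) and SF-SCL cows 9.85 ± 2.91 (SD, n = 3), a difference smaller than the SD of either group. The log2 fold change was -0.46 with a 95% interval of -1.53 to 0.61 (limma, adjusted p = 0.677). It was -0.17 when LF-LCL replicate 2, the lowest cow, was left out and -0.72 when LF-LCL replicate 1 was. Per summed size factor, IL1B reads were 1.23 times as frequent in SF-SCL (exact 95% interval 0.692 to 2.17, covering counting error only).

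IL6, a cytokine that induces acute-phase and antibody responses, had 4 reads over the LF-LCL cows and 13 over the SF-SCL cows. The reads were 2, 0 and 2 in LF-LCL replicates 1 to 3 and 5, 7 and 1 in SF-SCL. These were normalised read counts of 1.12, 0 and 2.81 in LF-LCL and of 6.5, 5.09 and 1.55 in SF-SCL. The 0 of LF-LCL replicate 2 allows up to 3 reads or a value of 2.5 (counting error only). SF-SCL replicates 1 and 2 lay above every LF-LCL cow, but SF-SCL replicate 3, with 1 read, lay below LF-LCL replicate 3, so the groups overlapped. The log2 fold change was -1.28 with a 95% interval of -2.88 to 0.32 (limma, adjusted p = 0.405), and its size moved to -0.56 when the pseudocount was 5 and to -2.44 when it was 0.1. Per summed size factor, IL6 reads were 4.3 times as frequent in SF-SCL, with an exact 95% interval of 1.33 to 18.1 that covers counting error and not the spread between cows.

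TNF, which activates endothelium and leukocytes, had 9 reads over the LF-LCL cows and 8 over the SF-SCL cows. The reads were 4, 4 and 1 in LF-LCL replicates 1 to 3 and 0, 7 and 1 in SF-SCL. In normalised units these were 2.25, 3.33 and 1.41 in LF-LCL and 0, 5.09 and 1.55 in SF-SCL, where the 0 allows up to 3 reads or a value of 3.9 (counting error only, since PCR copies could not be told from separate molecules). As listed, SF-SCL replicates 1 and 2 were the lowest and the highest of all 6 cows, and the ranges overlapped. With SF-SCL replicate 1 at its limit of 3.9 it would not be the lowest, and the ranges would still overlap. The log2 fold change was 0.38 with a 95% interval of -1.30 to 2.06 (limma, adjusted p = 0.842). Its sign was not stable: it was -0.28 without SF-SCL replicate 1, -0.09 with edgeR on all genes with a read and -0.01 with DESeq2. Per summed size factor, TNF reads were 1.18 times as frequent in SF-SCL, a direction opposite to that of the limma value. The exact 95% interval of this ratio was 0.395 to 3.43, covering counting error only.

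**Figure D2:**
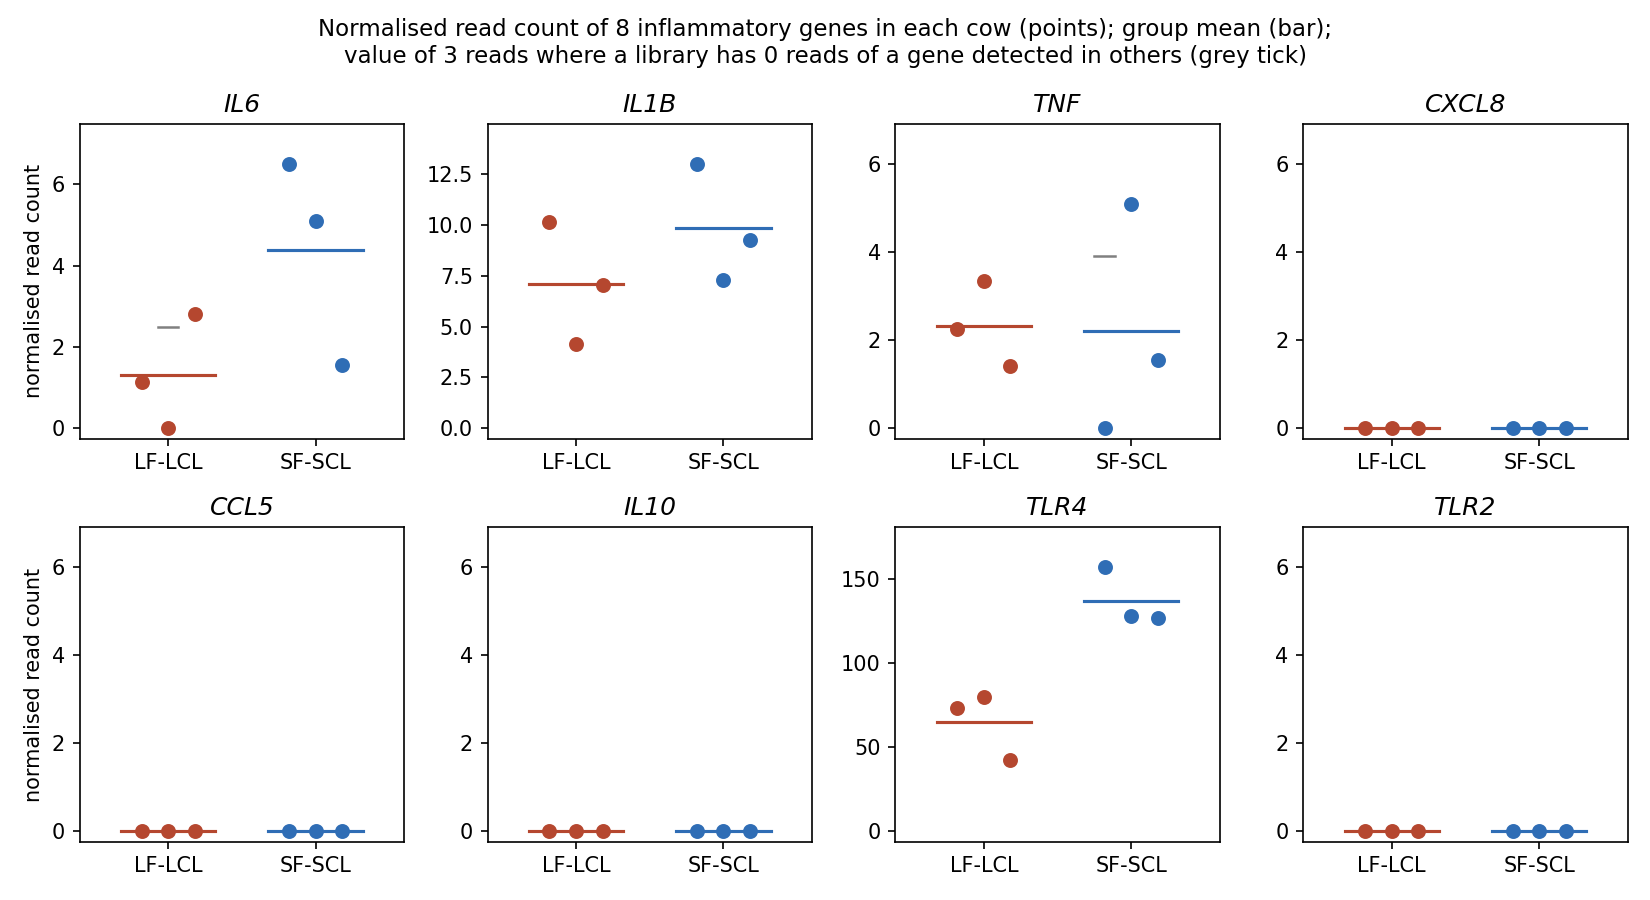
Normalised read count (vertical axes, a scale per gene) of each gene in each cow, LF-LCL in red and SF-SCL in blue, replicates 1 to 3 from left to right, with the group mean as a bar and, for IL6 and TNF, the value of 3 reads as a grey tick where a library had 0. The TLR4 groups do not overlap (42.2 to 79.9 against 127 to 157), IL6, IL1B and TNF overlap at values up to 13, and CXCL8, CCL5, IL10 and TLR2 lie at 0 throughout.

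For these 3 cytokines the reads were few and the intervals wide. Their variance within groups was 1.28 to 1.42 times that of counting error, on 4 degrees of freedom each. With their standard errors, a call would have needed a ratio of value + 1 of 6.03 for IL1B, 14.7 for IL6 and 16.8 for TNF. At counts this low, such a ratio is smaller than the ratio of the values themselves. The 95% intervals of the same ratio, SF-SCL over LF-LCL, were 0.653 to 2.88 for IL1B and 0.801 to 7.37 for IL6. For TNF the interval was 0.241 to 2.47, and none of these is a limit on the ratio of the levels themselves. With a pseudocount of 0.1, the IL6 interval of the log2 fold change (LF-LCL over SF-SCL) was -5.70 to 0.83, against -2.88 to 0.32 with 1. A difference in value + 1 of the size of that in TLR4 would therefore not have been called in any of the 3 genes.

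**Figure D3:**
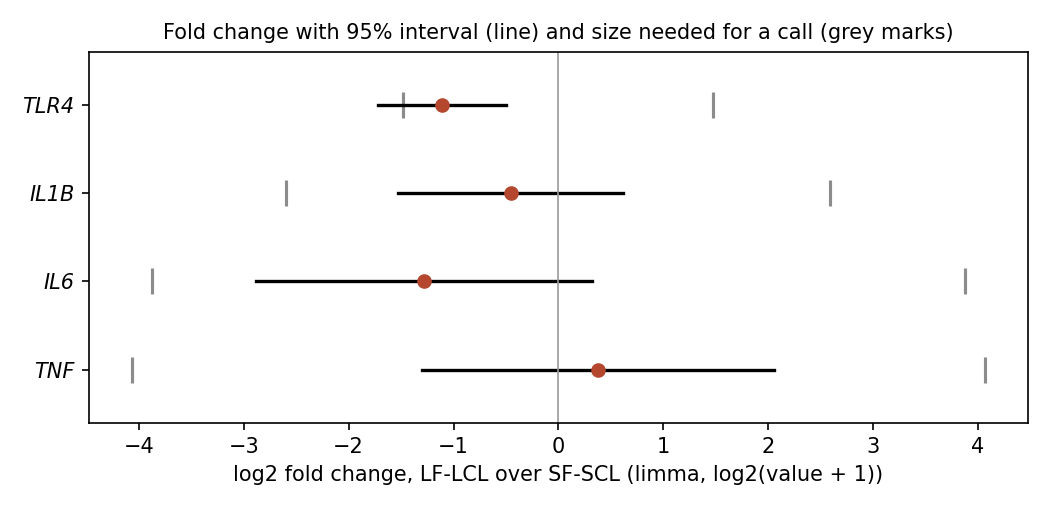
Log2 fold change of LF-LCL over SF-SCL (points, limma on log2(value + 1)) with the 95% interval (lines) for the 4 genes with reads, and the size that would have been called at each standard error (grey marks). The interval of TLR4 (-1.72 to -0.50) excludes 0 but its estimate of -1.11 falls short of the 1.48 needed, and the intervals of IL1B, IL6 and TNF include 0.

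The chemokines and the inhibitory cytokine had no reads in the table. CXCL8, CCL5 and IL10 were each listed at 0 reads in all 6 libraries, like TLR2. Hence 4 of the 8 genes were at 0 throughout, where 37.2% of the whole table was. In the RefSeq table, none of the 8 genes overlaps another gene, an arrangement that may differ in the annotation the authors used. The sources used here do not name the genome build, the gene annotation or whether counting used strand. These zeros are therefore stated as listed and not as absence of the transcripts.

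Across the set, 0 of the 4 genes tested were called by limma, where 0.965% of the 12535 genes tested were. At an unadjusted p under 0.05 limma passed 1 of the 4 (TLR4), against 17.1% of all genes tested. DESeq2 called TLR4 and gave no adjusted p for IL6 and TNF, whose counts were under its filter. edgeR with its filter on low counts tested TLR4 alone of the 4. The fitted log2 fold change was below 0 for 3 of the 4 genes (IL6, IL1B and TLR4), as for 51.4% of all genes tested. Its median was -0.78 against -0.01 over all genes. That median rests on 4 values and lies between IL1B (-0.46) and TLR4 (-1.11), and the intervals of IL6, IL1B and TNF include 0. At or below -1 were 2 of the 4 (IL6 and TLR4), a size reached by 5.24% of all genes, which covers genes of all read levels. IL6 fell short of -1 at a pseudocount of 5 (-0.56) and without LF-LCL replicate 2 (-0.78) or SF-SCL replicate 1 (-0.97). TLR4 did so without LF-LCL replicate 3 (-0.82). The 4 genes passed the filter on low values (a mean normalised read count of at least 1), and the other 4 had no reads, so these counts describe the genes with reads and not the whole set.

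**Figure D4:**
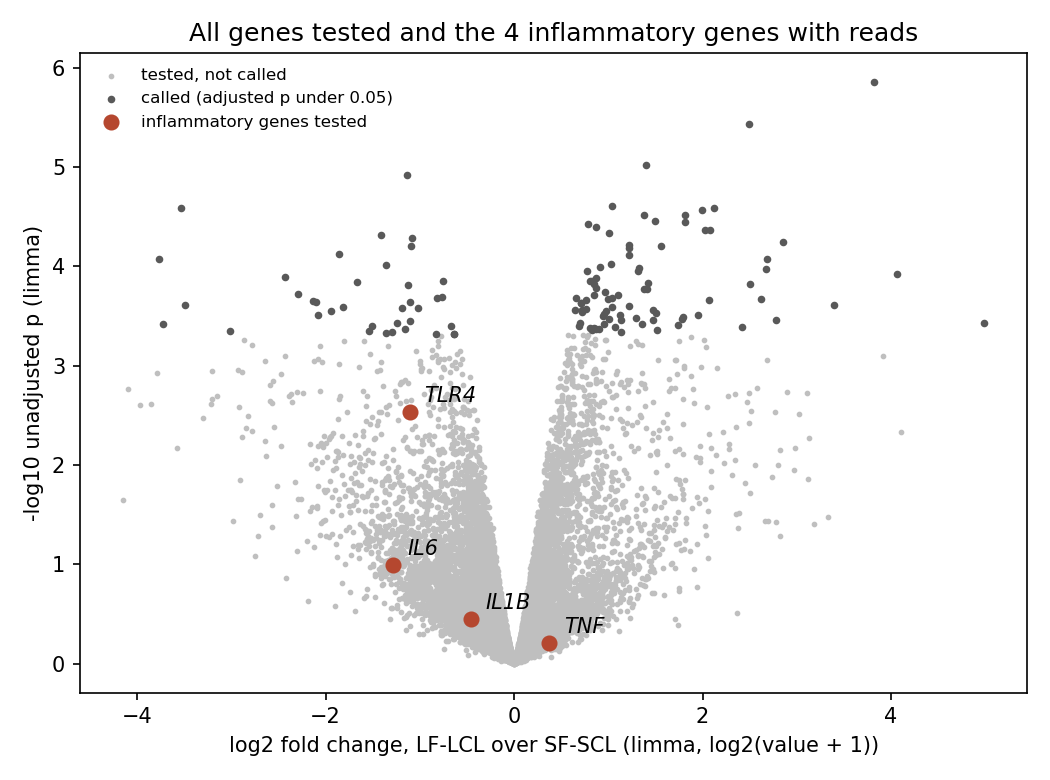
Unadjusted limma p (vertical axis, -log10) against log2 fold change of LF-LCL over SF-SCL (horizontal axis) for the 12535 genes tested, with called genes in dark grey and the 4 inflammatory genes with reads in red. TLR4 lies below the called genes at an unadjusted p of 0.00295, and IL6, IL1B and TNF lie lower, with IL6 at the larger fold change (-1.28).

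The profiles of the 4 genes over the 6 cows were compared by the root mean square difference of log2(value + 1), each centred on its own mean. The member nearest to TLR4 was IL1B, at 0.588, and 3008 of the other 12534 genes tested were nearer to TLR4 than that. The member nearest to IL6 was also IL1B, at 0.759, with 1016 genes nearer, whereas TNF was nearest to TLR4 at 1.13, with 10423 genes nearer. The 2 genes nearest to TLR4 of all genes tested, both at 0.106, had only 7 reads each, in the same libraries. Among the 7922 genes with a mean of at least 50, a minimum chosen after these values were seen, the nearest were ENSBTAG00000010050 at 0.114 and ENSBTAG00000019090 at 0.116. ENSBTAG00000010050 had normalised read counts of 1199, 1272 and 706 in LF-LCL replicates 1 to 3 and of 2109, 1793 and 1812 in SF-SCL. Both genes were picked for their likeness to TLR4, so a shared order of cows follows from the choice. ENSBTAG00000019090 was at 191, 221 and 106 in LF-LCL and 505, 350 and 351 in SF-SCL. The file gives no names for these 2 genes, and neither was called (limma, adjusted p = 0.0894 and 0.0733).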

How the data were processed

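The authors deposited 1 table of a non-negative signal per Ensembl cattle gene, a column for each cow. Per the submitters' processing notes, which assign no roles, the tools included Bowtie2 (version 2.1.0), HTSeq (version 0.5.4p2) and DESeq (version 1.12.1). Every deposited signal value above 0 was a whole multiple of its column's smallest, to within 0.01 reads, for 100% of values, and the implied size factors matched median-of-ratios factors recomputed from the reads. The values were therefore treated as scaled read counts, and whole reads were recovered. The sources used here do not name the genome build, the annotation or the strand setting.

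Genes with a mean of at least 1 entered a limma model (version 3.58.1, in R 4.3.3) of log2(value + 1) on group alone, with trended prior variance and p-values adjusted by Benjamini-Hochberg over all of them. Calls needed a two-sided adjusted p under 0.05. Fold changes on this scale understate changes of low genes. Alternatives were pseudocounts of 0.1 and 5, no filter, rescaling by TMM, edgeR 4.0.16 (quasi-likelihood, TMM or RLE factors, with and without its filter) and DESeq2 1.42.0 on the recovered reads, and leaving out each cow. The tests were tested on simulated data of this comparison. Of 100 genes changed 2-fold, all with a mean of at least 20, limma called 66 (12539 genes tested), edgeR 66 (10119) and DESeq2 67 (14820). They also called 7, 6 and 4 unchanged genes. Each simulated gene had the spread typical of its read level and none of its own. These shares do not apply to IL6, IL1B and TNF, whose means were under 20. Nor do they give a rate of calls for TLR4, whose own spread was not simulated. In the measured data limma called 121 genes, edgeR (TMM, with its filter) 85 and DESeq2 684, a disagreement that the simulated data did not show. The simulation therefore cannot decide between the tests that did and did not call TLR4. The labels describe separate cows; replicate numbers follow accession order. The sources used here do not say how these 6 were picked from the trial of 74 cows.

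The members and the tests were chosen with earlier results of these data known. All 8 members are named whatever their values, and the 2 genes nearest in profile to the most abundant member are given. Planned lists of other pathway genes and of cell type markers were not tested, because identifiers could not be paired with symbols.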

Additional observations from a re-analysis of the deposited data

How the results depend on the processing

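Limma called 0 of the 8 genes, and DESeq2 called 1 (TLR4, log2 fold change -1.05, adjusted p = 0.0109); the cause was not tested. The remaining 7 alternatives with all 6 cows and the 6 fits without 1 cow called 0 of the members. Over all genes these called 81 to 391 of 10177 to 15468 and, without 1 cow, 0 to 370 of 12499 to 12571, so 0 of a set this small says little about it. The TNF log2 fold change of 0.38 turned to -0.0918 with edgeR without a filter (adjusted p = 0.968) and to -0.01 with DESeq2 (-0.00535, no adjusted p). Leaving out 1 cow gave TNF values from -0.28 (without SF-SCL replicate 1) to 1.02 (without SF-SCL replicate 2). TLR4, IL6 and IL1B stayed below 0 in every alternative that tested them (14, 12 and 12 values). For TLR4, whose groups did not overlap, the sign in the 6 fits without 1 cow was fixed in advance. IL1B ranged from -0.72 to -0.17 without 1 cow. IL6 ranged from -2.44 (pseudocount 0.1) to -0.56 (pseudocount 5), and TNF reached 1.28 with a pseudocount of 0.1. edgeR with its filter, under TMM and RLE factors, gave no value for IL6, IL1B and TNF. No paired analysis was made, because the 6 libraries come from separate cows and the labels give no pairs. The replicate numbers used follow accession order. IL6, IL1B and TNF rest on 17, 54 and 17 reads over the 6 libraries. Their variance within groups was 1.28 to 1.42 times that of counting error, and whether cows differed beyond counting error was not tested there.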
